A study of Mus musculus with 3 samples.

Results

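Cd44 and the genes that make, bind and cut hyaluronan were described in Colon26, a mouse colon adenocarcinoma line, and in its derivatives LuM1 and NM11. The genes were Cd44, Has1, Has2, Has3, Hyal1, Hyal2 and Hmmr, and their probes were found by matching the RefSeq accession that the array annotation gives each probe to a gene symbol. This gave 7 genes with 11 probes, out of 22911 named genes and 56605 probes. One single-colour Agilent mouse expression array was run per cell line, on total RNA (0.1 µg) of cells grown for 3 days in RPMI1640 with serum and antibiotics. All 3 lines are labelled BALB/c and female. LuM1 is labelled as high-metastatic and NM11 as low-metastatic, each is 1 selected subline, and Colon26 is their parent, so the comparisons ask how the 7 genes differ between a rapidly and a slowly metastasizing derivative of the same tumor line. With 1 array per line there was no replicate, no test was run, and no difference has a check by a separate culture.

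Hyaluronan is a long, unbranched sugar polymer of the extracellular matrix. The synthases Has1, Has2 and Has3 extrude it through the plasma membrane from nucleotide sugars made in the cytosol. The hyaluronidases Hyal2, at the cell surface, and Hyal1, in lysosomes, cut it in turn, and the fragments are finished by lysosomal exoglycosidases. Cd44 is the main receptor for hyaluronan on the cell surface, is heavily spliced and is widely used as a marker of colon cancer stem cells. Hmmr (RHAMM) also binds hyaluronan and, inside the cell, associates with the mitotic spindle.

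The promoters of Cd44, Hyal1, Hyal2 and Hmmr are shown because these 4 genes were measured in every line, and because Hyal1 and Hyal2 lie close together and had their highest signals in the same line. Each sequence runs 5′ to 3′ on the gene's strand over 300 bases, of which 250 precede the annotated start, and was taken from RefSeq (GRCm38.p6). Capitals mark every match to 4 short motifs, searched on both strands: the TATA box (TATAAA), the GC box (GGGCGG), the CCAAT box (CCAAT) and the AP-1 site (TGANTCA). A promoter of this length held the TATA box in 13.6%, the GC box in 35.7%, the CCAAT box in 37.4% and the AP-1 site in 7.81% of all 32851 RefSeq mouse promoters listed. The windows are chr2:102901616-102901915 on the minus strand for Cd44, chr9:107576700-107576999 on the plus strand for Hyal1, chr9:107568913-107569212 on the plus strand for Hyal2, and chr11:40733388-40733687 on the minus strand for Hmmr.
Cd44 promoter: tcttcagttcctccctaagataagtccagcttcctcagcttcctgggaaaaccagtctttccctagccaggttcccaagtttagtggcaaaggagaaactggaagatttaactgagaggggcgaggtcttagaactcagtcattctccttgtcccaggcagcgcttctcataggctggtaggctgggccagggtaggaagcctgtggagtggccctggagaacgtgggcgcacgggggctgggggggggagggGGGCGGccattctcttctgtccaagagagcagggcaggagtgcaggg
Hyal1 promoter: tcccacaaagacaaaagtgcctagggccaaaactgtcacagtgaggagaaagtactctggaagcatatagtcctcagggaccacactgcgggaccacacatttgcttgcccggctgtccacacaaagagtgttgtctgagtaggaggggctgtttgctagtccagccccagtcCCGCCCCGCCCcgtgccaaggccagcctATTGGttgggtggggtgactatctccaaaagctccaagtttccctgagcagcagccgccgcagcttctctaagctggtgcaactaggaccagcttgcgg
Hyal2 promoter: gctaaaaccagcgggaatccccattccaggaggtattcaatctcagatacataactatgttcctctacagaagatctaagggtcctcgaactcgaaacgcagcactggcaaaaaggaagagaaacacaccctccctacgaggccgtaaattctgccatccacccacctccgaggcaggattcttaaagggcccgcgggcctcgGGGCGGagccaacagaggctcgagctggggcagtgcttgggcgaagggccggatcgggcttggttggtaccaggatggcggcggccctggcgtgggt
Hmmr promoter: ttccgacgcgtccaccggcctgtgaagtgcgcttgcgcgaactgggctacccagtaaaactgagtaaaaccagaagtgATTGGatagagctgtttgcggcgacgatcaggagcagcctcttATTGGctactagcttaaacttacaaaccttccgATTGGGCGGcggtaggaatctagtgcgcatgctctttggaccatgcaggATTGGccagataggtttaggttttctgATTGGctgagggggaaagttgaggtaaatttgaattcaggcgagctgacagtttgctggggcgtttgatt
The Cd44 window held 1 GC box and the Hyal2 window held 1 GC box. The Hyal1 window held 2 overlapping GC boxes and 1 CCAAT box. The Hmmr window held 5 CCAAT boxes, 1 of which overlaps its single GC box. None of the 4 windows held the letters of the TATA box or of the AP-1 site. A motif match describes the letters of a window and is not a measured binding site. The promoter windows of Hyal2, Hyal1 and Hyal3 follow each other on chromosome 9, and Hyal3, a further hyaluronidase, was not well above background in any of the 3 lines.

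Signals below are spot intensities on a linear scale, scaled so that the 75th percentile of every array became 585.1, and the error after each is that of the scanner software for 1 spot. This error is technical and does not cover differences between cultures. A probe was called detected where the scanner software found it well above background, which held for 49.9% of probes in Colon26, 53.8% in LuM1 and 52.5% in NM11, and no probe was saturated. The 11 spots of the 7 genes carried no outlier flag on any array. Of the 7 genes, 4 were detected in Colon26, 4 in LuM1 and 6 in NM11. Cd44, Hyal1, Hyal2 and Hmmr were detected in all 3 lines, Has1 and Has2 only in NM11 and Has3 in none. Probes bind with different strength, so signals are compared between lines and not between genes. The brightest gene of a list, and sums of signals over a list, are given as descriptions that a few bright probes can set.

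Cd44, the receptor, had its lowest signal in LuM1. The brightest of its 3 probes, A_55_P2912261, gave 6953 ± 695 in Colon26, 3317 ± 332 in LuM1 and 9723 ± 972 in NM11. The signal in LuM1 cells was 2.10-fold lower than that in Colon26 cells (log2 ratio -1.07, scanner error 0.20) and 2.93-fold lower than that in NM11 cells (-1.55, error 0.20). NM11 was 1.40-fold higher than Colon26 (log2 ratio 0.48, error 0.20), a difference that became -0.0046 when the arrays were scaled to Hprt, a housekeeping gene.

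The other Cd44 probes, annotated to the same RefSeq transcript, kept LuM1 lowest but differed in the size of the gap. Probe A_55_P2166501 gave 6043 ± 604 in Colon26, 1958 ± 196 in LuM1 and 6923 ± 692 in NM11. Here LuM1 was 3.09-fold lower than Colon26 and 3.54-fold lower than NM11, and NM11 and Colon26 lay within the scanner error of each other (log2 ratio 0.20, error 0.20). The dim probe A_55_P2166488 gave 48.8 ± 7.53 in Colon26, 39.4 ± 5.88 in LuM1 and 82.3 ± 9.20 in NM11. On this probe LuM1 and Colon26 did not differ beyond the scanner error (log2 ratio -0.31, error 0.31), whereas LuM1 was 2.09-fold lower than NM11. The exons under each probe were not analysed here, so a difference between splice forms and a difference in probe behaviour cannot be told apart.

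Hmmr, the second hyaluronan receptor, was also lowest in LuM1, by a smaller margin. Its brightest probe, A_55_P1991718, gave 1831 ± 183 in Colon26, 1471 ± 147 in LuM1 and 2286 ± 229 in NM11. LuM1 was 1.55-fold lower than NM11 (log2 ratio -0.64, error 0.20). LuM1 was 1.24-fold lower than Colon26 (log2 ratio -0.32, error 0.20), a direction that turned to 0.13 in the values the authors had scaled, and NM11 was 1.25-fold higher than Colon26 (log2 ratio 0.32), which turned to -0.17 under scaling to Hprt.

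The other Hmmr probes ordered the lines in the same way. Probe A_52_P9656 gave 376 ± 38.0 in Colon26, 290 ± 29.3 in LuM1 and 534 ± 53.5 in NM11. Probe A_55_P2738132 gave 558 ± 56.2 in Colon26, 399.9 ± 40.3 in LuM1 and 735 ± 73.7 in NM11. Both put LuM1 1.84-fold lower than NM11, each with a log2 ratio of -0.88.

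**Figure D1:**
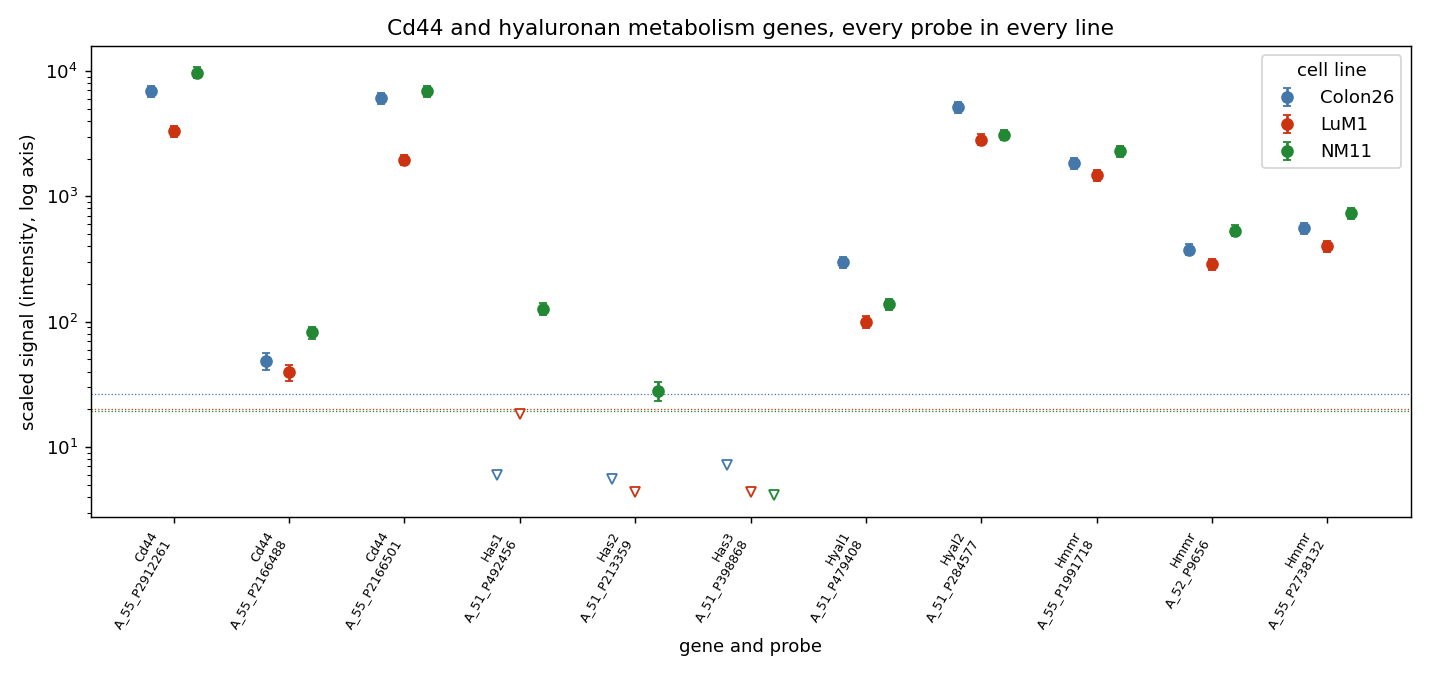
Scaled signal (intensity, log axis) of every probe of the 7 genes in Colon26, LuM1 and NM11, with bars for the scanner error of the spot, open triangles for probes not well above background and dotted lines for each array's detection limit. LuM1 has the lowest signal on all 3 Cd44 probes and all 3 Hmmr probes, though on the dim Cd44 probe it lies within the scanner error of Colon26 and the Hmmr gap to Colon26 turns with the authors' scaling, and Has1 is detected only in NM11 (127 ± 13.5).

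Among the synthases, only NM11 gave signals well above background. By the scanner software's looser call, significantly above background, Has1 also had a signal in LuM1 (18.5 ± 5.05) and Has3 in Colon26 (7.13 ± 5.77). Has1 measured 127 ± 13.5 in NM11 and was not well above background in Colon26 and LuM1. Against the detection limit of the other arrays, which was 26.4 for Colon26 and 20.1 for LuM1, the NM11 signal was at least 4.81-fold that of Colon26 and at least 6.31-fold that of LuM1. The detection limit is the lowest signal on an array among probes well above background, and a fold against it is a lower bound. With normexp background correction the Has1 bounds shrank to log2 ratios of 1.12 for NM11 over Colon26 and -1.04 for LuM1 over NM11.

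Has2, the synthase best known from mesenchymal cells and from development, stood just above the limit in NM11 with 28.2 ± 4.98 and was not well above background in the other lines. Its bounds were at least 1.07-fold over Colon26 and at least 1.40-fold over LuM1, so a difference of Has2 was barely resolved. Has3 was not well above background in any line and has no ratio. In these bulk cultures, fewer cells carrying a transcript and less of it per cell cannot be told apart.

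The hyaluronidases Hyal1 and Hyal2 had their highest signals in the parental line and their lowest in LuM1. Hyal1 gave 298 ± 30.3 in Colon26, 99.2 ± 10.8 in LuM1 and 138 ± 14.4 in NM11. Hyal1 was 3.00-fold lower in LuM1 than in Colon26 (log2 ratio -1.59, error 0.22) and 2.15-fold lower in NM11 than in Colon26 (-1.11, error 0.21). Both sublines lay below Colon26, and LuM1 was 1.39-fold lower than NM11 (-0.48, error 0.22), a gap that turned to 0.11 under scaling to Hprt.

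Hyal2 followed the same order. It gave 5144 ± 514 in Colon26, 2834 ± 283 in LuM1 and 3102 ± 310 in NM11. Hyal2 was 1.82-fold lower in LuM1 than in Colon26 (log2 ratio -0.86, error 0.20) and 1.66-fold lower in NM11 than in Colon26 (-0.73, error 0.20). The sublines differed by less than the scanner error (log2 ratio -0.13, error 0.20), and the sign of this difference turned when the arrays were not scaled, were scaled to Hprt, were quantile-normalized or carried the authors' scaling. Hyal1 and Hyal2 thus shared the pattern of higher signal in Colon26 than in both sublines, from 2 probes on the same 3 arrays.

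The 4 genes measured in all lines were set beside every other gene measured on the same pair of arrays. Between LuM1 and Colon26, 3.21% of 12397 genes had a lower ratio than Hyal1, 8.45% a lower ratio than Cd44, 13.2% a lower ratio than Hyal2 and 38.1% a lower ratio than Hmmr. Between LuM1 and NM11, 2.43% of 12851 genes had a lower ratio than Cd44, and Hmmr, Hyal1 and Hyal2 stood at 17.2%, 25.0% and 48.0%. Between NM11 and Colon26, 4.51% of 12471 genes lay below Hyal1 and 10.4% below Hyal2, whereas 75.8% lay below Hmmr and 83.2% below Cd44. Cd44 thus stood far from the middle mainly where LuM1 was compared, and Hyal1 mainly where Colon26 was compared. The median gene had log2 ratios of -0.13, -0.11 and -0.02 in these 3 comparisons, and relative to the median gene Cd44 stood at -0.94, -1.44 and 0.51.

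**Figure D2:**
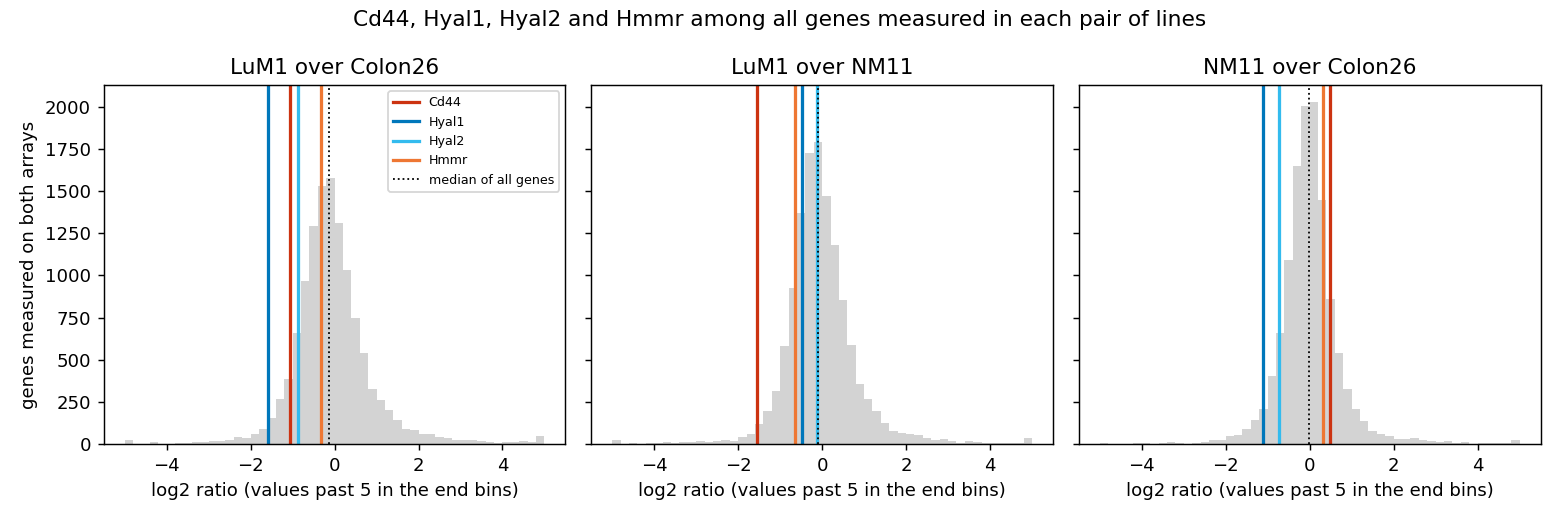
Number of genes (vertical axis) by log2 ratio of scaled signals (horizontal axis) for genes detected on both arrays of a pair, with coloured lines at Cd44, Hyal1, Hyal2 and Hmmr and a dotted line at the median gene. Cd44 lies at -1.55 in LuM1 over NM11, with 2.43% of 12851 genes below it, and Hyal1 at -1.59 in LuM1 over Colon26, with 3.21% of 12397 genes below it.

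At a threshold of 2-fold, none of the 7 genes was higher in LuM1 than in Colon26, and 2, Cd44 and Hyal1, were lower. Among the 14353 genes with a signal on at least 1 of both arrays, 12.9% were higher by that margin and 11.7% lower in this comparison. Against NM11, none was higher by 2-fold in LuM1 and 2, Cd44 and Has1, were lower, where 11.1% of all 14415 genes were higher and 8.5% were lower. Between NM11 and Colon26, Has1 was the 1 gene at least 2-fold higher in NM11 (8.17% of all 14109 genes) and Hyal1 the 1 gene at least 2-fold lower (7.74%). Cd44 alone of the 7 was below both other lines by 2-fold or more in LuM1, as were 4.28% of all genes. The call against Colon26 was lost without scaling (-0.96), with Hprt (-0.97), with quantile normalization (-0.88) and in the authors' values (-0.62). Hyal1 alone was below Colon26 by 2-fold or more in both sublines, as were 4.86% of all genes, and its call in NM11 was lost with normexp (-0.77). The counts of these 7 genes are too small to set apart from the shares of all genes.

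**Figure D3:**
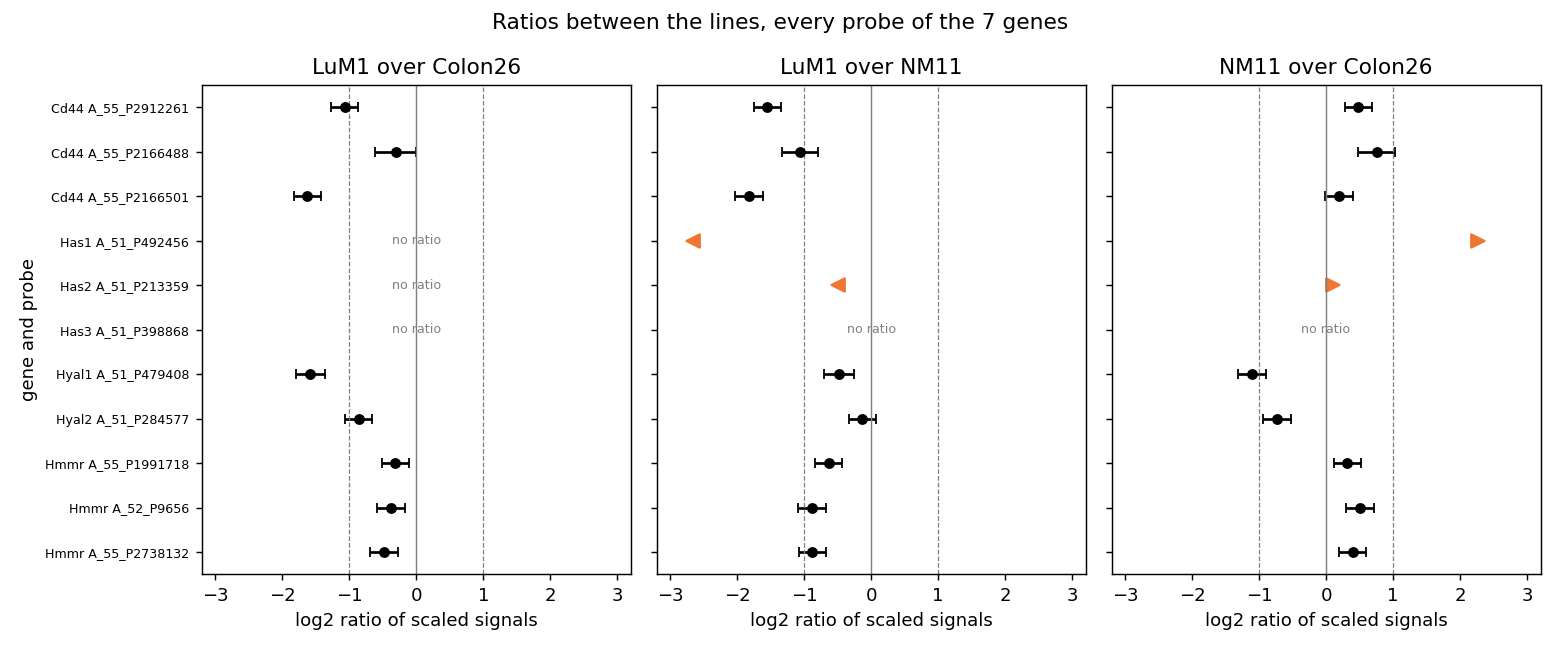
Log2 ratio of scaled signals (horizontal axis) for every probe of the 7 genes (vertical axis) in LuM1 over Colon26, LuM1 over NM11 and NM11 over Colon26, with bars for the scanner error, orange triangles for bounds that point to the larger difference, and dashed lines at 2-fold. The Cd44 probes run from -1.82 to -1.06 in LuM1 over NM11 and from -1.63 to -0.31 in LuM1 over Colon26, and in NM11 over Colon26, where the brightest probe stands at 0.48, scaling to Hprt moves it to -0.0046.

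The genes whose pattern over the 3 lines was nearest to Cd44, by Euclidean distance over the log2 ratios of LuM1 and of NM11 to Colon26, were Nav3, Slc19a1, Eef2k, Scara3 and Hyls1. The nearest, Nav3, stood at -1.03 in LuM1 and 0.53 in NM11, at a distance of 0.058 from Cd44. Of 12248 genes detected in all lines, 28 lay within 0.2 of Cd44, a distance of about the scanner error of a single ratio. Around Hmmr, 538 genes lay within that distance, led by Atpif1, Cyba, Rbm4, Bub1b and Supt6. Bub1b, a spindle checkpoint kinase, stood at -0.33 in LuM1 and 0.31 in NM11. Fewer genes thus lay near Cd44, on its brightest probe, than near Hmmr, whose ratios were closer to those of the median gene. Such a count depends on that position and does not set Cd44 apart. The other Cd44 probes stood elsewhere, A_55_P2166501 at -1.63 in LuM1 and 0.20 in NM11, and A_55_P2166488 at -0.31 and 0.75. There were 3 arrays behind both counts and no test.

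The rest of the pathway was read from lists of genes, beginning with the sugar precursors. Of the 9 genes that make the nucleotide sugars, 8 were detected in every line, and none differed by 2-fold between LuM1 and either other line. Other scalings gave up to 3 genes higher in LuM1 than in NM11 (with Hprt) and up to 2 higher than in Colon26 (in the authors' values). The brightest, Ugdh, which makes UDP-glucuronic acid, gave 13222 ± 1322 in Colon26, 9415 ± 942 in LuM1 and 14908 ± 1491 in NM11. Named after its values were seen, Uap1, which makes UDP-N-acetylglucosamine, gave 2062 ± 206 in Colon26, 2649 ± 265 in LuM1 and 4312 ± 431 in NM11. It was the single gene of the list past 2-fold between NM11 and Colon26 (2.09-fold higher, as were 8.17% of all genes by 2-fold). This call was lost without scaling, with Hprt and with normexp. The list's median log2 ratio was 0.06 for LuM1 over Colon26 and -0.13 for LuM1 over NM11.

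Among the other genes of hyaluronan turnover, Cemip2 (Tmem2), a membrane protein that cuts hyaluronan at the cell surface, was highest in LuM1. It gave 366 ± 37.2 in Colon26, 2317 ± 232 in LuM1 and 445 ± 44.7 in NM11. The signal in LuM1 was 6.33-fold higher than that in Colon26 (log2 ratio 2.66) and 5.21-fold higher than that in NM11 (2.38). Cemip2 thus had the opposite order to Hyal1 and Hyal2, which were lower in LuM1 than in Colon26.

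Cemip, a secreted protein of the same family that binds hyaluronan and promotes its breakdown, was added to the text after its values were seen. It was not well above background in Colon26, and gave 306.5 ± 30.9 in LuM1 and 182 ± 18.6 in NM11. A second Cemip probe was not well above background in any line. On the brighter probe the signal was at least 11.6-fold (LuM1) and at least 6.90-fold (NM11) the level in Colon26. Of all genes, 4.93% were above Colon26 by 2-fold or more in both sublines. Hexa, a lysosomal hexosaminidase and the brightest gene of this list, gave 3905 ± 391 in Colon26, 5325 ± 533 in LuM1 and 5700 ± 570 in NM11, within 2-fold in each comparison. Of the 10 genes of the list, Hyal3, Hyal4, Hyal5, Hyal6 and Spam1 were not well above background in any line. Against Colon26, 2 genes of the list were higher by 2-fold in LuM1 and none was lower (12.9% and 11.7% of all genes).

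Of 10 further hyaluronan receptors and binding proteins, 2 exceeded both other lines by 2-fold in LuM1 (7.8% of all genes did). By that margin 1 was lower than both (4.28% of all genes). Tlr2, a pattern receptor reported to respond to hyaluronan fragments, was not well above background in Colon26 and gave 542 ± 54.4 in LuM1 and 68.7 ± 8.14 in NM11. Its LuM1 signal was at least 20.5-fold that of Colon26 and 7.89-fold that of NM11. Tlr4, a related receptor, gave 595 ± 59.8 in Colon26, 1770 ± 177 in LuM1 and 839 ± 84.0 in NM11, so that LuM1 was 2.98-fold and 2.11-fold higher. The dimmer Tlr4 probe had a log2 ratio of 0.74 in LuM1 over NM11, short of 2-fold. With normexp the genes of the list higher by 2-fold in LuM1 numbered 1 rather than 2 against NM11, and 2 rather than 3 against Colon26.

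C1qbp, a mostly mitochondrial protein also known as hyaluronan-binding protein, had the opposite order. It gave 35406 ± 3541 in Colon26, 12925 ± 1293 in LuM1 and 37269 ± 3727 in NM11. LuM1 was 2.74-fold lower than Colon26 and 2.88-fold lower than NM11, the same order as for Cd44, and the 2-fold call against NM11 was lost with Hprt. Lyve1, the hyaluronan receptor of lymphatic endothelium, and Habp2 were not well above background in any line.

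Of 19 matrix partners of hyaluronan and ligands of Cd44, 7 were detected in Colon26, 7 in LuM1 and 8 in NM11, and 3 exceeded both other lines by 2-fold in LuM1 (7.8% of all genes). Vcan, a large proteoglycan that binds hyaluronan, gave 114 ± 12.8 in Colon26, 712 ± 71.3 in LuM1 and 159 ± 16.4 in NM11, which was 6.23-fold and 4.49-fold higher in LuM1. A second Vcan probe, not well above background in Colon26, put LuM1 further apart, with a bound of 5.88 over Colon26 and a ratio of 3.38 over NM11 on the log2 scale. Bmp2, a growth factor of bone and gut listed here among the partners, gave 611 ± 61.3 in Colon26, 2260 ± 226 in LuM1 and 26.9 ± 4.86 in NM11. Srgn, a granule proteoglycan that binds Cd44, was detected only in LuM1 with 2494 ± 249.5, at least 94.4-fold over Colon26 and at least 127-fold over NM11.

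Itih2, a heavy chain that becomes bound to hyaluronan, was lower in LuM1, where it was not well above background. It gave 50.7 ± 7.43 in Colon26 and 41.9 ± 5.76 in NM11, at least 2.52-fold and at least 2.08-fold above LuM1. In LuM1, 1 gene of the list was lower by 2-fold than in Colon26 and 3 were lower than in NM11 (11.7% and 8.5% of all genes). With normexp no gene of the list was lower by 2-fold in LuM1. The lower calls also numbered 0 against NM11 with Hprt, and 0 against Colon26 in the authors' values. Against NM11 they numbered 2 rather than 3 without scaling and in the authors' values. Spp1 (osteopontin), a Cd44 ligand and the brightest gene of the list, gave 163622 ± 16362 in Colon26, 137353 ± 13735 in LuM1 and 87300 ± 8730 in NM11, within 2-fold in each comparison. Named after their values were seen, Tnfaip6, which moves heavy chains onto hyaluronan, and Ptx3, which helps to crosslink it, were highest in NM11. Tnfaip6 gave 37.0 ± 6.01 in LuM1 and 108 ± 11.7 in NM11, and Ptx3 gave 54.2 ± 6.81 in NM11. Both were below the detection call in Colon26, and Ptx3 also in LuM1. In NM11 over Colon26, 2 genes of the list were higher by 2-fold and 1 was lower (8.17% and 7.74% of all genes).

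Among 14 named genes for linkers, sheddases and splicing factors of Cd44, 1 was above and 1 was below both other lines by 2-fold in LuM1 (7.8% and 4.28% of all genes). Against NM11, the lower call was lost without scaling, with Hprt and in the authors' values, and the higher calls numbered 4 rather than 1 with Hprt and in the authors' values. Against Colon26, the lower call was lost with quantile normalization and in the authors' values. The higher calls against Colon26 numbered 5 rather than 2 in the authors' values. Mmp9, a matrix protease that docks on Cd44, was not well above background in Colon26 and gave 2311 ± 231 in LuM1 and 24.7 ± 4.97 in NM11. The LuM1 signal was at least 87.5-fold that of Colon26 and 93.7-fold that of NM11. Rdx (radixin), which ties Cd44 to actin, gave 4414 ± 441 in Colon26, 2007 ± 201 in LuM1 and 4491 ± 449 in NM11, so that LuM1 was 2.20-fold and 2.24-fold lower.

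Rdx thus had the order of Cd44, while the related linkers did not share its size of difference. Ezr (ezrin), the brightest gene of the list, gave 11813 ± 1181 in Colon26, 8043 ± 804 in LuM1 and 11275 ± 1127 in NM11. Msn (moesin), named after its values were seen, gave 686 ± 68.9 in Colon26, 918 ± 91.9 in LuM1 and 781 ± 78.2 in NM11. Ank3 (ankyrin G), also named after the fact and able to bind the Cd44 tail, gave 108 ± 12.5 in Colon26, 2496 ± 249.7 in LuM1 and 1448 ± 145 in NM11, or 23.1-fold and 13.4-fold higher in the sublines than in Colon26. Esrp1, an epithelial splicing factor of Cd44 and likewise a later choice, gave between 31.5 and 43.1 in the 3 lines, and Esrp2 was not well above background in any.

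**Figure D4:**
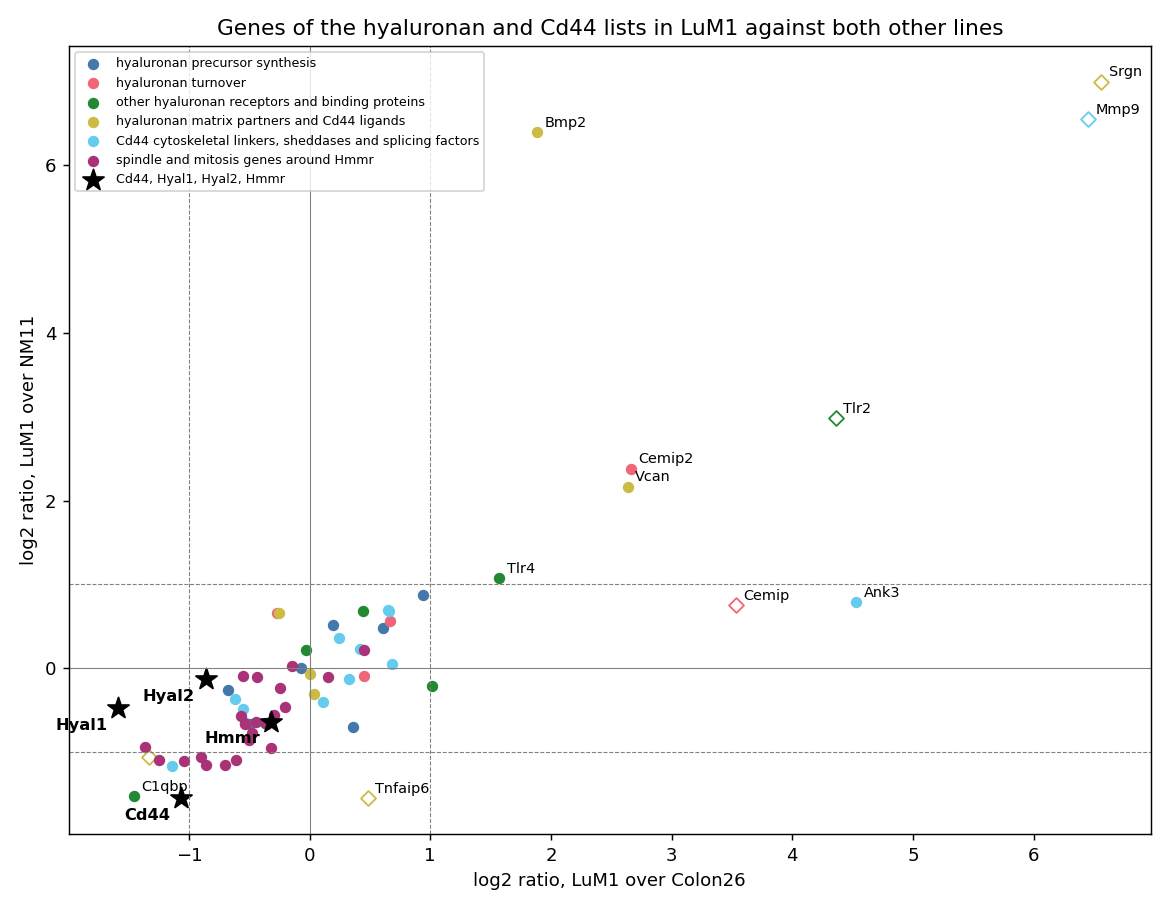
Log2 ratio of scaled signals in LuM1 over Colon26 (horizontal axis) and over NM11 (vertical axis) for the genes of 6 lists around hyaluronan and Cd44, with open diamonds where a value is a bound, stars for Cd44, Hyal1, Hyal2 and Hmmr, and dashed lines at 2-fold. Cd44 lies at -1.07 and -1.55, opposite to Cemip2 at 2.66 and 2.38, while Hmmr, at -0.32 and -0.64, stands at 0.13 on the horizontal axis with the authors' scaling.

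The spindle and mitosis genes around Hmmr were all detected in all lines. Of the 23 genes, 21 had a log2 ratio below 0 in LuM1 over Colon26, with a median of -0.47 against -0.13 for all genes, but 12 of 23 did in the values the authors had scaled. Against NM11, 21 of 23 lay below 0, with a median of -0.66 against -0.11 for all genes, and 14 of 23 did under scaling to Hprt. Between NM11 and Colon26 the median was 0.24, which turned to -0.25 under scaling to Hprt. Relative to the median gene, which any constant scaling moves alike, the list stood at -0.34, -0.55 and 0.26 in the 3 comparisons and at -0.27, -0.53 and 0.24 with quantile normalization. Hmmr itself stood at -0.18, -0.53 and 0.34.

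Of these genes, 3 were below Colon26 by 2-fold in LuM1 and 6 were below NM11, and none was above by 2-fold in either comparison, where 11.7% and 8.5% of all genes were lower. The count against NM11 was 1 with quantile normalization and 0 without scaling, with Hprt and in the authors' values, and the count against Colon26 was 2 in the first 3 of these settings and 0 in the authors' values. Aurka, a spindle kinase activated by the Hmmr partner Tpx2, gave 16767 ± 1677 in Colon26, 8163 ± 816 in LuM1 and 17594 ± 1759 in NM11, so that LuM1 was 2.05-fold and 2.16-fold lower. Ccnb2, a mitotic cyclin, gave 11946 ± 1195 in Colon26, 5033 ± 503 in LuM1 and 10765 ± 1076 in NM11, so that LuM1 was 2.37-fold and 2.14-fold lower. Dynll1, a dynein light chain that binds Hmmr and was the brightest of the list, gave 47043 ± 4704, 39809 ± 3981 and 46794 ± 4679 in the same order. The proliferation marker Mki67, named after its values were seen, gave 6877 ± 688, 7628 ± 763 and 8213 ± 821, so that LuM1 lay within the scanner error of both other lines.

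The CCAAT boxes of the Hmmr promoter were set beside the same list. Of its 20 genes with a promoter entry, 17 (85%) held at least 1 CCAAT box and 10 (50%) at least 2, against 41.1% and 13.3% of 27025 genes. The 5 boxes of Hmmr were matched or exceeded in 84 genes (0.311%). These shares describe letters in the promoters and were not tested against the ratios.

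Cell type markers were read because a receptor such as Cd44 is shared by many cells. Of 12 markers of colon epithelium, 4 were detected in Colon26, 5 in LuM1 and 4 in NM11, and Cdh1, Krt18, Krt19, Cdx1, Vil1, Muc2 and Lgr5 were not well above background in any line. The markers detected were Cdx2, Krt8, Krt20 and Cldn7 in every line, and Epcam in LuM1 alone. Their summed signal was 1215 in Colon26, 480 in LuM1 and 455 in NM11. The sum covers opposite directions. In LuM1 over Colon26, Krt8 was higher (log2 ratio 1.89), while Krt20 (-3.58), Cdx2 (-0.94) and Cldn7 (-0.65) were lower. Krt8 was dim, with 28.9 ± 6.36 in Colon26 against a detection limit of 26.4. The colon origin of the lines is taken from their label and was not tested. Of 8 fibroblast markers, 5, 7 and 7 were detected, with a summed signal of 66319, 55460 and 121223, and Lum was not well above background in any line. Col1a2 gave 59896 ± 5990 in Colon26, 49.6 ± 6.89 in LuM1 and 85275 ± 8527 in NM11. Col1a1 gave 4918 ± 492, 2247 ± 225 and 6045 ± 605 in the same order. These 2 genes shared the direction of Cd44 in both comparisons, while Dcn and Pdgfra were highest in LuM1. In LuM1 over Colon26, 4 genes of the list were higher by 2-fold and 2 were lower (12.9% and 11.7% of all genes). In LuM1 over NM11, 2 were higher and 3 were lower (11.1% and 8.5%). The part of these markers in the Cd44 difference was not tested.

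Of 7 markers of macrophages and other leukocytes, 3 exceeded each other line by 2-fold in LuM1 and none was lower (7.8% and 4.28% of all genes). These were Cd68, Lyz2 and Cd14, and the summed signal of the list was 7034 in Colon26, 17046 in LuM1 and 6213 in NM11. Ptprc and Adgre1, which define leukocytes and macrophages, were not well above background in any line. These markers were higher in the same line as Tlr2, Tlr4, Srgn and Mmp9, genes that leukocytes also use, and their part in those differences was not tested. Itgam, an integrin chain that stands in both the receptor list and the leukocyte list, gave 5027 ± 503 in Colon26, 6818 ± 682 in LuM1 and 4251 ± 425 in NM11. Its dimmer probe had another order, with 63.4 in Colon26, 31.0 in NM11 and no signal well above background in LuM1. Of 5 endothelial markers, 4 were not well above background in any line, and their summed signal lay between 51.3 and 78.3.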

How the data were processed

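Gene expression in Colon26, LuM1 and NM11 cells (1 array each) was measured on single-colour Agilent arrays. Scanner output of Agilent Feature Extraction 11.5.1.1 was deposited, and its intensity values were already background-subtracted and detrended but not scaled between arrays, with flags of 0 or 1 per spot for outliers, saturation and detection. The authors also deposited a table of intensity values, in which the scanner signal of an array was multiplied by 1 constant (0.654, 0.829 and 0.706 in the order Colon26, LuM1, NM11), whose derivation is not given in the sources used here. The array columns had medians of 22.6, 35.4 and 22.2 in that table.

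Each array was scaled to the 75th percentile of its non-control spots (581.1, 625.1 and 551.5 before scaling). Outlier spots (137, 74 and 99) were then left out, and repeated spots of a probe were averaged. Ratios were taken on the log2 scale. A probe not well above background on 1 array entered as a bound, and a probe below on both had no ratio. Of 56605 probes, 32994 (58.3%) matched a gene by RefSeq accession (GRCm38.p6), and the brightest probe stood for a gene. The array design used an older assembly, so the files' coordinates are not printed. The scanner software's error was combined over both spots of a ratio. Spots of a repeated probe had a median SD of 0.035, 0.040 and 0.037 (log2) within the 3 arrays. The number of arrays, 1 per line, limits the precision and allows no test.

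The 7 genes and all lists were chosen with earlier results of these data known. Text names were taken by rule: all probes of the 7 genes, the list genes 2-fold or more above or below both other lines in LuM1 (at most 4 a direction), the brightest gene of each list and the 5 nearest patterns. Other names are said to be later choices, or are given only as detected or not. The list of Cd44 partners had 1 gene without a named probe.

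The alternatives were no scaling, scaling to the median detected probe, quantile normalization, scaling to Hprt, normexp correction of the background (offset 50, on median spot brightness and median local background), the authors' table, looser detection, no filter, the mean over probes, the probe brightest in LuM1 and a 4-fold threshold. The other Cd44 and Hmmr probes and a 75th percentile without outlier spots were added after seeing the data. The ratio and call steps were tested on simulated data. Python 3.11.15 (numpy 2.4.6, pandas 2.3.3, scipy 1.17.1, matplotlib 3.10.9) and R 4.3.3 with limma 3.58.1 were used. RT-qPCR, knockdown and animal work of the study was not analysed here.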

Additional observations from a re-analysis of the deposited data

Results flagged for a closer look

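On their brightest probes, Cd44 and Hmmr lay on opposite sides of Colon26 in the sublines, lower in LuM1 and higher in NM11, each by more than the scanner error. On the other Cd44 probes 1 side lay within that error, NM11 on A_55_P2166501 (0.20) and LuM1 on A_55_P2166488 (-0.31). The log2 ratio to Colon26 was lower in LuM1 than in NM11 by 1.55 for Cd44 (difference -1.55) and by 0.64 for Hmmr (difference -0.64). The difference was not tested, because each line has 1 array, and the 2 ratios of a gene share the Colon26 array. For both genes the NM11 side turned under scaling to Hprt, to -0.0046 for Cd44 and -0.17 for Hmmr, and for Hmmr the LuM1 side turned to 0.13 in the authors' scaled values.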

How the results depend on the processing

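No paired analysis was possible because each line has 1 array. The log2 ratio of Cd44 in LuM1 over Colon26 (-1.07) became -0.62 in the authors' values, -1.63 on probe A_55_P2166501 and -0.31 on probe A_55_P2166488. In LuM1 over NM11 (-1.55) it became -0.96 with Hprt, -1.32 with quantile normalization, -1.14 in the authors' values, and -1.82 and -1.06 on those probes. In NM11 over Colon26 (0.48) it became -0.0046 with Hprt, and 0.20 and 0.75 on the probes. The lower signal of Cd44 in LuM1 kept its direction under all 13 alternatives of both comparisons. Looser detection, no filter and the probe brightest in LuM1 could not change it, because they left the same Cd44 probe and ratio in place. On probe A_55_P2166488 the ratio to Colon26 lay within the scanner error.

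With looser detection, and with no filter, the genes at least 2-fold higher numbered 1 rather than 0 in LuM1 over Colon26 and 2 rather than 1 in NM11 over Colon26. Those at least 2-fold lower in LuM1 over Colon26 (2) numbered 1 without scaling, with Hprt, with quantile normalization and in the authors' values, and 0 at 4-fold. In LuM1 over NM11 (2) they numbered 1 with Hprt and at 4-fold, and 3 with looser detection and with no filter. In NM11 over Colon26 (1) they numbered 2 with Hprt, and 0 with normexp and at 4-fold. At the 2-fold threshold, the gene that dropped out in LuM1 over Colon26 was Cd44. With looser detection and with no filter, Has2 passed 2-fold, at log2 ratios of 2.34 in NM11 over Colon26 and -2.70 in LuM1 over NM11. Its signals in Colon26 and LuM1 were not well above background. No further cause of these changes was tested.

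Other scalings moved the median of all genes, by 0.45 (LuM1 over Colon26) and 0.41 (LuM1 over NM11) in the authors' values, and by 0.59 (LuM1 over NM11) and -0.49 (NM11 over Colon26) with Hprt. The share of 2-fold calls that were higher was 52.5%, 56.6% and 51.4% in the 3 comparisons. It was 77.7% and 81.4% in the first 2 in the authors' values, 87.8% in LuM1 over NM11 and 20.1% in NM11 over Colon26 with Hprt, and 68.6% in LuM1 over NM11 without scaling. The bound of Has1 in NM11 over LuM1 was smallest with normexp (log2 ratio of LuM1 over NM11 -1.04). Signals near the detection limit, such as that of Has2, limit what can be said of the synthases.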
